A study of Mus musculus with 7 samples.

Results

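Fatty acids enter a cell through membrane receptors and transport proteins, are carried in the cytosol by small binding proteins, and are trapped and made usable when acyl-CoA synthetases join them to coenzyme A. The activated form feeds both oxidation in mitochondria and the synthesis of the triglycerides and cholesteryl esters that fill lipid droplets. In microglia, the resident macrophages of the brain, this pathway handles lipids taken up from myelin and cell debris. The genes described here are 10 members of this pathway chosen by name and role, out of 50686 genes in each library. They comprise 3 uptake genes (Cd36, Slc27a1 and Slc27a4), 2 cytosolic binding proteins (Fabp3 and Fabp4) and 5 long-chain acyl-CoA synthetases (Acsl1, Acsl3, Acsl4, Acsl5 and Acsl6).

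RNA was sequenced from microglia of 4 young (3 to 4 months) and 3 old (21 to 22 months) male mice of the C57BL/6 background, which received no drug to deplete microglia. All mice had brain ischemia by transient occlusion of the middle cerebral artery 4 days earlier, and the sorted cells of both ages were Bodipy+, that is, positive for a dye of neutral lipids. Cells without lipid droplets and mice without ischemia were not analysed here, so the comparison concerns age among lipid-laden, post-ischemic microglia. Libraries were made by a non-stranded Smart-seq2 protocol for low RNA input, and each is named by the code of its mouse: 14C, 18C, 23C and 29C (young), and 2posI, 3posI and 4posI (old). Expected counts summed to between 45379786 and 53002386 in young and between 36574083 and 46133564 in old libraries. All 10 members passed the filter of more than 10 expected counts in at least 1 library.

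Markers of microglia were abundant in every library, and 1 old library stood apart. All 8 microglia markers were above 1 TPM (transcript abundance scaled for transcript length and library total) in the mean over libraries. Their summed TPM was 11023, 14875, 9004 and 11891 in 14C, 18C, 23C and 29C, and 10477, 4314 and 11366 in 2posI, 3posI and 4posI. The 8 markers of infiltrating monocytes and macrophages summed to 284, 73.8, 126 and 92.6 TPM in the young libraries, and to 248, 3347 and 194 TPM in 2posI, 3posI and 4posI. Library 3posI therefore held the lowest sum of microglia markers and the highest sum of monocyte and macrophage markers. The leading gene of the latter list, Chil3, which encodes a chitinase-like protein, was at 1217 TPM in 3posI and at 7.50 to 65.9 TPM in the other libraries. The monocyte gene Ccr2, named after its values were seen, was at 87.3 TPM in 3posI and at 0.860 to 8.24 TPM elsewhere. Summed markers of border-associated macrophages, led by Pf4, were also highest in 3posI, at 1292 TPM against 155 to 454 TPM elsewhere. Pf4 alone gave 775 TPM of the sum in 3posI. Not every gene of this list was highest there. Cd163, named after its values were seen, was at 7.61 TPM in 3posI, 8.35 TPM in 2posI and 7.88 TPM in 14C.

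None of the other marker lists had a gene at 0 in every library. Neutrophil markers, led by S100a8, summed to 13.1 to 318 TPM, with the highest values in 29C (318 TPM) and 3posI (304 TPM). Ngp of this list, named after its values were seen, was at 1.94 TPM in 3posI, against 19.4 TPM in 29C and 15.95 TPM in 4posI. Endothelial markers, led by Cldn5, summed to 57.6 to 127 TPM in young and 37.7 to 53.0 TPM in old libraries, with the old range wholly under the young one. Oligodendrocyte markers (led by Cnp) summed to 72.4 to 86.9 TPM, astrocyte markers (Slc1a3) to 27.2 to 73.0 TPM and lymphocyte markers (Cd79b) to at most 28.8 TPM. Pericyte and smooth muscle markers (Rgs5) and neuronal markers (Rbfox3) stayed at or below 13.02 and 2.18 TPM. Dendritic cell markers summed to 1.94 to 3.36 TPM in young and 7.04 to 9.23 TPM in old libraries, and their leading gene Cd209a was at 0.080 to 1.49 against 5.35 to 6.67 TPM, so here the old range lay wholly above the young one. The list did not move as one, since Zbtb46, named after its values were seen, was at 1.20 to 1.64 TPM in young and 0.38 to 0.87 TPM in old libraries. In sorted bulk samples, fewer cells of a type and less RNA per cell cannot be told apart. For every member, and for some of the other genes, the value without 3posI is given below.

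Members are shown first by their levels per transcript length. In young microglia, the mean TPM ordered the genes as Acsl5 (65.9 ± 4.20, SD, n = 4), Slc27a1 (58.6 ± 20.6), Fabp3 (43.9 ± 10.8), Acsl1 (23.8 ± 2.11), Cd36 (19.5 ± 12.1), Acsl4 (14.1 ± 3.17), Slc27a4 (7.77 ± 0.871), Acsl3 (2.38 ± 0.471), Fabp4 (1.70 ± 1.59) and Acsl6 (0.973 ± 0.331). Among neighbours in this order, Fabp3 and Acsl1, Acsl4 and Slc27a4, and Slc27a4 and Acsl3 had ranges that did not overlap, and the other neighbours overlapped. In old microglia, the order was Acsl5 (61.2 ± 5.40, SD, n = 3), Slc27a1 (50.03 ± 34.6), Fabp3 (44.0 ± 0.364), Cd36 (37.4 ± 35.9), Acsl4 (17.4 ± 3.26), Acsl1 (14.6 ± 2.41), Fabp4 (9.89 ± 12.2), Slc27a4 (6.38 ± 1.40), Acsl3 (1.84 ± 0.129) and Acsl6 (0.773 ± 0.452). There, ranges were apart only between Slc27a4 and Acsl3 and between Acsl3 and Acsl6. Acsl5, Slc27a1 and Fabp3 thus led in both ages, and the large SD of Cd36, Slc27a1 and Fabp4 in old microglia came with a single high library, 3posI. The summed TPM of the 10 genes was 243, 201, 286 and 224 in young libraries and 198, 330 and 202 in 2posI, 3posI and 4posI.

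**Figure D1:**
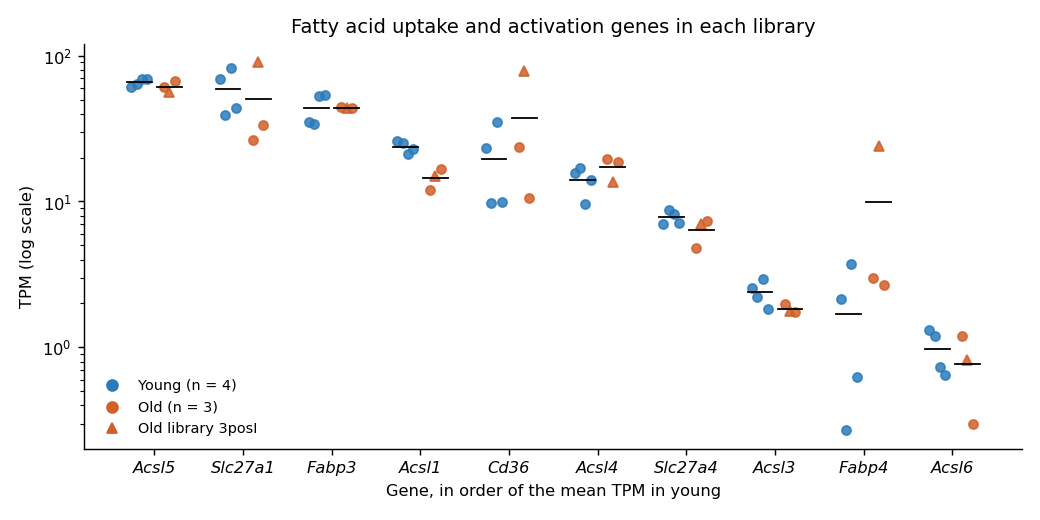
TPM of each member in each library, on a log axis, with genes in the order of their mean in young microglia. Points are libraries, black lines are group means, and the triangle is old library 3posI, which sits above all other libraries for Cd36, Slc27a1 and Fabp4, whereas Acsl1 is the gene with all old libraries below all young ones.

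No member passed the test between ages. Of the 10 genes, 0 had an adjusted p under 0.05 in the quasi-likelihood test of edgeR, with p-values adjusted by Benjamini-Hochberg, where 0.803% of the 17559 autosomal genes passed. The X-linked Acsl4 came from the same fit with all chromosomes kept, where 0.754% of 18173 genes passed. At an unadjusted p under 0.05, 2 members remained, Fabp4 with a higher and Acsl1 with a lower value in old microglia, beside 18.9% of all autosomal genes. The median log2 fold change (log2FC) of old against young was 0.05 over the members and -0.01 over all genes tested, with 6 members above 0 and 4 below. Without 3posI, 0 members had an adjusted p under 0.05 and 3 an unadjusted p under it (Acsl4 above 0, Slc27a1 and Acsl1 below), beside 17.6% of the autosomal genes of that fit.

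**Figure D2:**
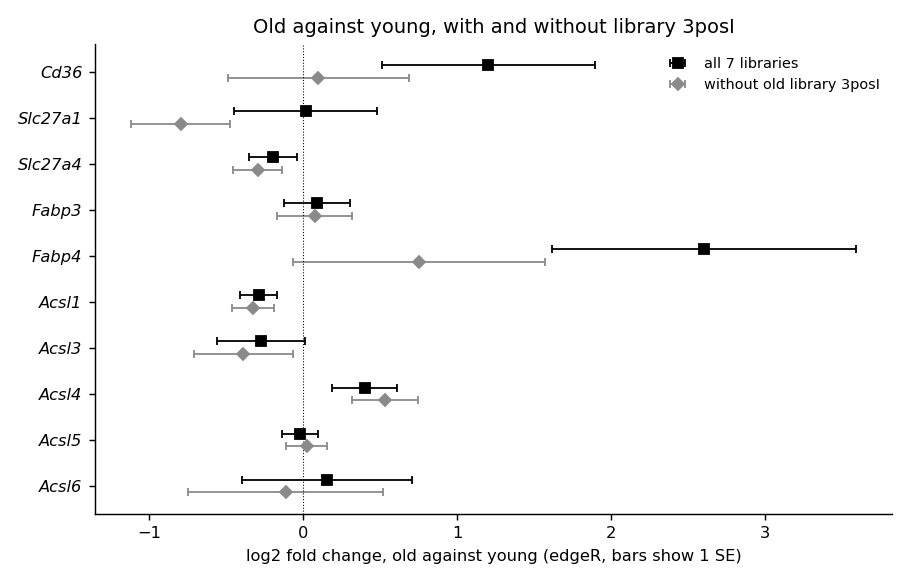
log2FC of each member, old against young, from edgeR with all 7 libraries (squares) and without old library 3posI (diamonds), with bars of 1 SE. Fabp4 goes from 2.61 to 0.75, Cd36 from 1.20 to 0.10 and Slc27a1 from 0.01 to -0.80 when 3posI is left out, whereas the acyl-CoA synthetases move less.

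Positions are given on GRCm38 from GENCODE vM21, and all 10 members are protein-coding. Among the uptake genes, Cd36 (ENSMUSG00000002944, chr5:17781690-17888801, minus strand) encodes a scavenger receptor that binds long-chain fatty acids and oxidized lipoproteins. Its level was 35.9, 12.8, 52.6 and 14.3 CPM (counts scaled to library size with TMM factors, not to length) in 14C, 18C, 23C and 29C, and 43.8, 138 and 18.2 CPM in 2posI, 3posI and 4posI. The groups overlapped, and 3posI was the only old library above the highest young one. The log2FC of old against young was 1.20 (SE 0.69, 95% interval -0.37 to 2.78, adjusted p = 0.382, edgeR), and 0.10 (SE 0.59, adjusted p = 0.952) without 3posI. Young libraries also differed among themselves, with 23C and 14C above 18C and 29C.

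Slc27a1 (ENSMUSG00000031808, chr8:71568882-71587302, plus strand) encodes a fatty acid transport protein of the plasma membrane that also has acyl-CoA synthetase activity. It measured 116, 60.6, 144 and 76.8 CPM in 14C, 18C, 23C and 29C, and 55.1, 187 and 59.1 CPM in 2posI, 3posI and 4posI. Here too 3posI was the highest of the 7 libraries, while the other 2 old libraries lay below every young one. The fitted log2FC was 0.01 (SE 0.46, interval -1.04 to 1.07, adjusted p = 0.990, edgeR), so the interval allows a change of about 1 log2 unit in either direction. Without 3posI it was -0.80 (SE 0.32, unadjusted p = 0.0370, adjusted p = 0.251, edgeR).

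Slc27a4 (ENSMUSG00000059316, chr2:29802634-29817522, plus strand), another transport protein with synthetase activity that resides mainly on internal membranes, varied little. Its level was between 20.1 and 24.5 CPM in young and between 15.6 and 22.2 CPM in old libraries, and the groups overlapped. Its log2FC was -0.20 (SE 0.16, interval -0.55 to 0.16, adjusted p = 0.525, edgeR). It was -0.30 without 3posI and -0.06 without 2posI.

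Both genes of the binding proteins code for small cytosolic carriers. Fabp3 (ENSMUSG00000028773, chr4:130308595-130315463, plus strand), the form best known from heart muscle, was at 18.3 to 31.6 CPM in young and 23.8 to 28.1 CPM in old libraries, with a log2FC of 0.09 (SE 0.21, interval -0.40 to 0.57, adjusted p = 0.852, edgeR). Its expected counts were whole numbers, within a tolerance of 0.001, in 0 of 7 libraries, so reads were shared with other transcripts, and 81 of its exon bases lie opposite Zcchc17, which a non-stranded library cannot separate. Its values are uncertain to that extent. Without 3posI its log2FC was 0.07.

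Fabp4 (ENSMUSG00000062515, chr3:10204088-10208576, minus strand), the carrier of adipocytes and macrophages, was the member with the smallest unadjusted p and the largest fold change. It measured 1.41, 0.201, 2.33 and 0.409 CPM in 14C, 18C, 23C and 29C, from 65, 9, 119 and 19 counts. In 2posI, 3posI and 4posI it measured 2.09, 16.3 and 1.60 CPM, from 70, 638 and 74 counts. The groups overlapped, with 2posI and 4posI within the range of the young libraries and 3posI above all others. The log2FC was 2.61 (SE 0.99, interval 0.36 to 4.86, unadjusted p = 0.0279, adjusted p = 0.207, edgeR). Without 3posI it was 0.75 (SE 0.82, adjusted p = 0.674), with both remaining old libraries above 3 of the 4 young ones.

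Cd36, Fabp4 and Slc27a1 had their highest value in the library with the highest sum of monocyte and macrophage markers and the lowest sum of microglia markers. According to the methods, cells were stained for CD11b and CD45 before sorting, and the paper describes its microglia gate as CD45-low and CD11b-positive. The part of these cell markers in the values of Cd36, Fabp4 and Slc27a1 was not tested. Across the 7 libraries, the tested genes with log2 CPM most like Fabp4 were Mfsd7b (Pearson r = 0.997), Lgals3 (0.992), Psmd8 (0.992), Lgals1 (0.992) and Emp3 (0.988). Lgals3 and Lgals1 encode galectins. Lgals3 ran from 232 to 909 CPM in young libraries and was at 778, 2116 and 705 CPM in 2posI, 3posI and 4posI, so it too was highest in 3posI. Cd36 ranked 186 of 17558 genes in likeness to Fabp4 (r = 0.939), and Slc27a1 had r = 0.676. These values describe 7 libraries of unequal make-up, and 3posI carries weight in each of them.

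**Figure D3:**
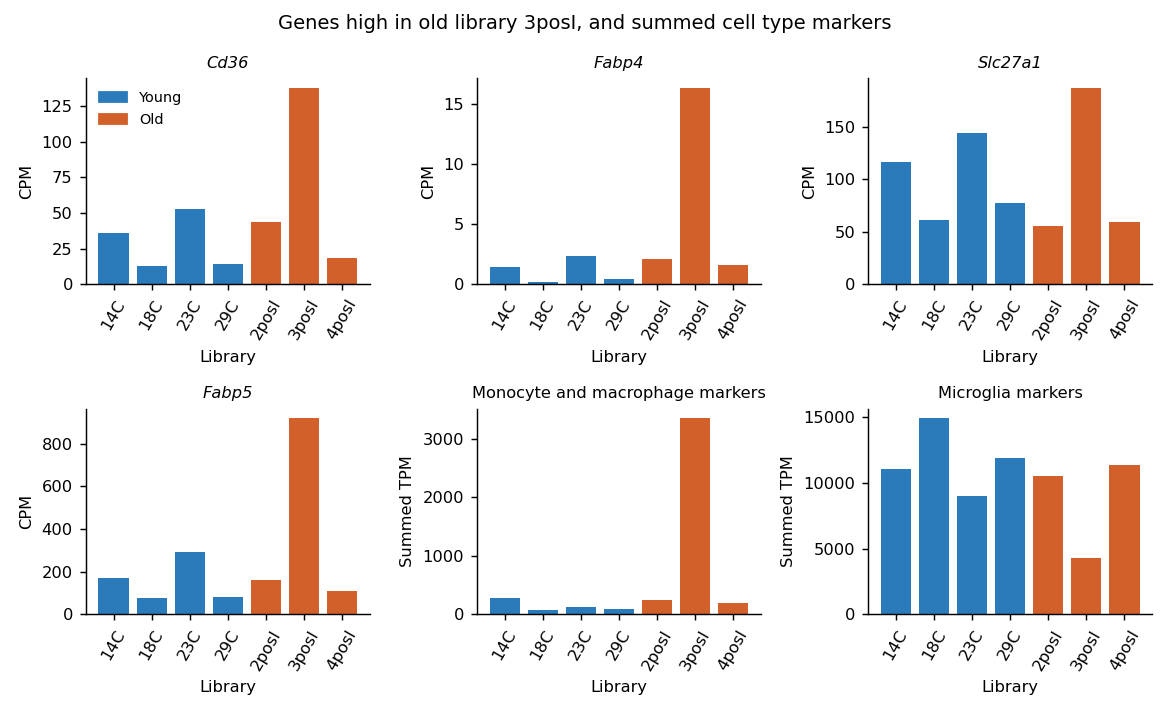
CPM of Cd36, Fabp4, Slc27a1 and Fabp5, and summed TPM of the monocyte and macrophage markers and of the microglia markers, in each library (bars, blue for young and orange for old). Library 3posI has the tallest bar in the first 5 panels, with 16.3 CPM for Fabp4 and 3347 summed TPM of monocyte and macrophage markers, and the shortest for microglia markers.

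Among the acyl-CoA synthetases, Acsl5 and Acsl1 varied less between libraries than Cd36, Fabp4 and Slc27a1 did. Acsl5 (ENSMUSG00000024981, chr19:55251938-55297720, plus strand), an enzyme of the endoplasmic reticulum and mitochondria, had the highest mean TPM of the members in each age. In 14C, 23C and 3posI the TPM of Slc27a1 was higher. Acsl5 was at 135, 138, 152 and 165 CPM in young libraries and at 154, 137 and 145 CPM in 2posI, 3posI and 4posI. All old values lay within the young range. For this gene edgeR gave a log2FC of -0.02 (SE 0.12, interval -0.29 to 0.25, adjusted p = 0.941), and 0.022 without 3posI. Of the exon bases of Acsl5, 404 overlap Zdhhc6 on the opposite strand, which had 1591 to 3129 counts, so some reads may belong to either gene. Expected counts of Acsl5 were, however, whole in 7 of 7 libraries, within the tolerance used for Fabp3.

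Acsl1 (ENSMUSG00000018796, chr8:46471037-46536051, plus strand) channels fatty acids to triglyceride synthesis or to mitochondrial oxidation, depending on the tissue. It was at 43.4, 38.3, 35.6 and 35.0 CPM in 14C, 18C, 23C and 29C, and at 30.1, 32.6 and 30.7 CPM in 2posI, 3posI and 4posI. The old values all lay under the young ones, and Acsl1 was the 1 member of 10 whose groups did not overlap in CPM, beside 17.6% of all 18173 genes in either direction. The log2FC was -0.29 (SE 0.12, interval -0.56 to -0.02, unadjusted p = 0.0381, adjusted p = 0.235, edgeR), and -0.32 (SE 0.14, adjusted p = 0.269) without 3posI. The difference was thus as large without the library that stood apart by its markers, and it missed the threshold in both fits. The summed endothelial markers were likewise lower in every old library (37.7 to 53.0 against 57.6 to 127 TPM), the dendritic cell gene Cd209a, though not every gene of its list, was higher in every old library (5.35 to 6.67 against 0.080 to 1.49 TPM), and their part in the values of Acsl1 was not tested.

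Per transcript length the separation of Acsl1 was wider. Its TPM was 25.8, 25.1, 21.2 and 23.0 in young libraries and 11.9, 15.0 and 16.7 in 2posI, 3posI and 4posI, a mean of 23.8 against 14.6. All old libraries were lower, as in 11.1% of all genes. TPM divides the count by the effective length, which RSEM averages over the transcripts of a gene by their estimated abundance. For Acsl1 this length was 1991 to 2373 bases in young and 2621 to 3083 bases in old libraries, with a ratio of 1.27 between the means. With this length as an offset, the log2FC of Acsl1 was -0.61 (adjusted p = 0.0678, edgeR), and on log2(TPM + 0.1) it was -0.71 (adjusted p = 0.0832, limma). These were the lowest adjusted p-values of any member under any setting.

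Every old library also had a longer effective length for Cd36 (1887 to 2161 bases in young, 2233 to 2454 in old) and Slc27a1 (2229 to 2471 bases in young, 2502 to 2637 in old). That makes 3 of the 7 members with several annotated transcripts and more than 10 counts in every library, beside 15.0% of the 10163 genes that meet the same conditions. Measures of the whole library also separated the ages. Ribosomal RNA, mitochondrial included, took 4.14% to 4.99% of the counts in young and 2.21% to 3.37% in old libraries, and 65.4% to 65.9% against 66.4% to 67.4% of the expected counts above 0 were whole. Their part in the lengths and in the values of Acsl1 was not tested. The share of these genes with a shorter length in every old library was 6.95%. Acsl5 and Fabp3 have a single transcript in the files, so their length is fixed. For Acsl1, the files list 11 transcripts of 343 to 5676 bases, 7 of them protein-coding, and its expected counts were whole in 2 of 7 libraries. Which transcripts were present cannot be read from values given per gene.

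**Figure D4:**
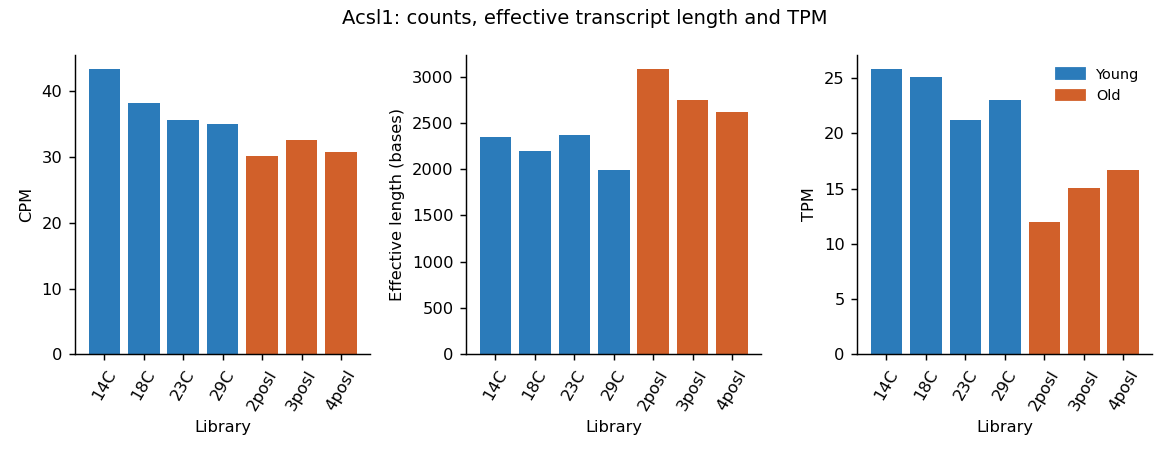
CPM, effective length in bases and TPM of Acsl1 in each library (blue for young, orange for old). In all 3 panels the ages do not overlap: old libraries are lower in CPM (30.1 to 32.6 against 35.0 to 43.4), longer in effective length and lower in TPM.

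Acsl4 (ENSMUSG00000031278, chrX:142317993-142390535, minus strand) prefers arachidonic acid and other polyunsaturated fatty acids and is known as a determinant of ferroptosis. It was at 55.1, 57.4, 33.5 and 52.7 CPM in 14C, 18C, 23C and 29C, and at 79.0, 52.8 and 64.8 CPM in 2posI, 3posI and 4posI. The old libraries 2posI and 4posI lay above every young one, and 3posI lay within the young range. The log2FC was 0.40 (SE 0.21, interval -0.08 to 0.88, adjusted p = 0.342, edgeR with all chromosomes kept), and 0.53 (SE 0.21, unadjusted p = 0.0363, adjusted p = 0.251) without 3posI. It was 0.25 without 2posI (unadjusted p = 0.307, edgeR) and 0.25 without 23C (unadjusted p = 0.159).

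Acsl3 (ENSMUSG00000032883, chr1:78657825-78707743, plus strand), which sits on the endoplasmic reticulum and on nascent lipid droplets, and Acsl6 (ENSMUSG00000020333, chr11:54303798-54364756, plus strand), a form of the brain that favours docosahexaenoic acid, were the least abundant synthetases. Acsl3 ranged from 2.88 to 6.20 CPM in young and from 3.40 to 4.40 CPM in old libraries, with a log2FC of -0.27 (SE 0.28, interval -0.92 to 0.37, adjusted p = 0.636, edgeR). Acsl6 ranged from 0.903 to 1.66 CPM in young and was at 2.21, 2.07 and 0.389 CPM in 2posI, 3posI and 4posI, with a log2FC of 0.15 (SE 0.55, interval -1.11 to 1.42, adjusted p = 0.905, edgeR). The groups overlapped for both. Acsl3 had whole expected counts in 0 of 7 libraries and shares 244 exon bases with Utp14b on the same strand, so its values are uncertain. The log2FC of Acsl3 was -0.39 without 3posI, -0.10 without 23C and -0.44 without 29C, and that of Acsl6 was -0.11 without 3posI and 0.61 without 4posI.

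The shares of the 5 enzymes in their summed TPM do not depend on the scaling between libraries. Acsl5 made up 61.6% ± 4.46 (SD, n = 4) of the sum in young microglia, and the value was 63.9% ± 0.260 (SD, n = 3) in old ones. The share of Acsl1 was 24.3%, 23.0%, 20.4% and 21.1% in 14C, 18C, 23C and 29C, and 12.5%, 17.2% and 16.0% in 2posI, 3posI and 4posI, that is, lower in 3 of 3 old libraries. The share of Acsl4 was 14.7%, 15.5%, 9.29% and 12.9% in the young, and 20.5%, 15.6% and 18.0% in the old libraries, higher in 3 of 3. The shares of a library are parts of 1 sum, so those of Acsl1 and Acsl4 are not independent. The TPM of Acsl4 itself overlapped between ages, at 9.64 to 16.9 in young and 13.6 to 19.6 in old libraries. In TPM, Acsl4 exceeded Acsl1 in 0 of 4 young libraries and in 2 of 3 old ones (not in 3posI). In expected counts, which leave the effective length out, it did so in 3 of 4 young and 3 of 3 old libraries. The difference was -6.95 percentage points for Acsl1 (two-sided exact permutation p = 0.0286, the smallest that 35 splits allow, adjusted p = 0.143 over the 5 shares) and 4.97 points for Acsl4 (exact permutation p = 0.0571, adjusted p = 0.143). Neither passed after adjustment, but over 5 shares a single share at the smallest possible p could not have passed, so this outcome decides nothing. In shares of summed expected counts the difference was -3.15 points for Acsl1 (exact permutation p = 0.0857) and 5.80 points for Acsl4 (exact permutation p = 0.114). Acsl3 and Acsl6 took 2.23% and 0.908% in young and 1.94% and 0.827% in old microglia. Together the 5 genes reached 107 ± 2.57 TPM (SD, n = 4) in young microglia, against 95.7 ± 8.53 TPM (SD, n = 3) in old ones.

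**Figure D5:**
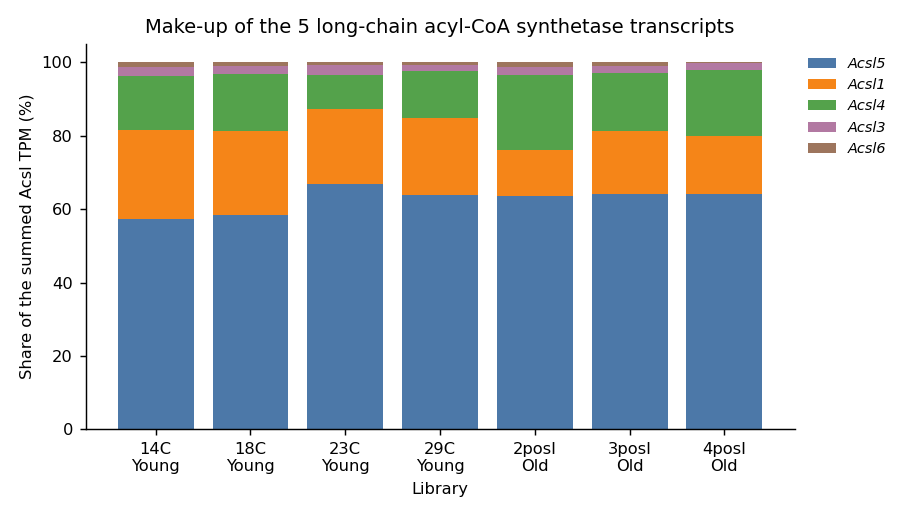
Share of each acyl-CoA synthetase gene in the summed TPM of the 5 genes, in each library (stacked bars adding to 100%). Acsl5 takes between 57.4% and 66.8% of every bar, and the Acsl1 segment is smaller in the 3 old libraries (12.5% to 17.2%) than in the 4 young ones (20.4% to 24.3%).

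Many genes of fatty acid handling are controlled by the peroxisome proliferator-activated receptors (PPARs), which bind DNA together with retinoid X receptors (RXRs) at repeats of the half-site AGGTCA. RefSeq windows of 250 bases before an annotated start (GRCm38.p6) were found for 9 of the 10 members, 14 windows in all. The half-site, searched on both strands, occurred in 2 of the 14 windows, and in 14.0% of 32851 windows of the same length. It was found once before Cd36 (chr5:17835897-17836146, minus strand), beginning 228 bases before a start that lies inside the GENCODE span of the gene, and in 1 of the 3 windows of Acsl6. The windows of Cd36 and of the 2 starts of Acsl1 (chr8:46470787-46471036 and chr8:46490716-46490965, plus strand) are shown because Cd36 is a known PPAR target and because the effective length of Acsl1 differed between ages. Capitals mark the half-site, read here as its reverse complement TGACCT.
Cd36: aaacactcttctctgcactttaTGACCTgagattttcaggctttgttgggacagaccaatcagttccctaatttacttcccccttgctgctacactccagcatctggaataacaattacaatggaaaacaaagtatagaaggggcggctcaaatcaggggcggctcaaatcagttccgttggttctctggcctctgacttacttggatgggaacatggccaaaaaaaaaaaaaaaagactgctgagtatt
Acsl1 upstream start: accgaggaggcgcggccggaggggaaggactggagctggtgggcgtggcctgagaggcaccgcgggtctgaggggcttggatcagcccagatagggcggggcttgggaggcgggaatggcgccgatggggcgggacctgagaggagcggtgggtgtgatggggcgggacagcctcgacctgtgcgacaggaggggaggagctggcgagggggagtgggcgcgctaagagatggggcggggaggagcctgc
Acsl1 downstream start: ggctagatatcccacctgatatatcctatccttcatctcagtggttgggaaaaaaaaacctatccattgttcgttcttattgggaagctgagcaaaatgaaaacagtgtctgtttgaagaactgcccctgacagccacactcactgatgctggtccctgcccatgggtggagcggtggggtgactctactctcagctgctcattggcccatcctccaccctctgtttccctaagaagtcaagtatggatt
The upstream window of Acsl1 has a GC content of 72.0%, and the downstream one of 48.4%. No half-site lies in either, which says only that these letters are not in this window. A match of 6 letters is a description of the sequence and no measure of binding.

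The rest of the pathway was described by 77 further genes in 9 lists, of which 58 were tested. Of these, 0 had an adjusted p under 0.05 (edgeR), beside 0.803% of all genes, and 27 were higher and 31 lower in old microglia by fitted value. At an unadjusted p under 0.05 there were 12 (6 higher, 6 lower), or 20.7%, close to the 18.9% of all genes. Without 3posI there were 12 of 57 (4 higher, 8 lower), beside 17.6% of the autosomal genes of that fit. The other acyl-CoA synthetases among them went from 2 to 4 of 8, all lower. The median log2FC was -0.08.

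The 1 tested gene of the other transport proteins, Slc27a3, was at 0.928 to 1.91 CPM in all libraries, with a log2FC of 0.28 (adjusted p = 0.726), and 0.44 without 3posI. Of the other binding proteins, Fabp5, a carrier of epidermis and macrophages, was at 170, 75.6, 291 and 80.1 CPM in 14C, 18C, 23C and 29C, and at 162, 918 and 109 CPM in 2posI, 3posI and 4posI. As with Fabp4 and Cd36, 3posI was highest, and 23C highest among the young. The log2FC of Fabp5 was 1.36 (SE 0.75, adjusted p = 0.363, edgeR), and -0.18 without 3posI. Among genes of lipolysis, lipoprotein and membrane uptake, 1 of 8 had an unadjusted p under 0.05 (12.5%, beside 18.9% of all genes). This was Lrp1, an endocytic lipoprotein receptor, with a log2FC of 0.44 (SE 0.18, adjusted p = 0.228, edgeR). Without 3posI it was 0.27 and the unadjusted p was 0.139 (edgeR).

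Among the other acyl-CoA synthetases, Acss1 came closest to the threshold in the pathway. This gene encodes the mitochondrial enzyme that activates acetate. It was at 106, 107, 103 and 121 CPM in young libraries and at 66.7, 42.1 and 67.8 CPM in 2posI, 3posI and 4posI, so all old libraries were lower. edgeR gave a log2FC of -0.89 (SE 0.18, adjusted p = 0.0611), and -0.70 (adjusted p = 0.0494) without 3posI. Acss3, also of this list, had an unadjusted p under 0.05 at counts near the detection limit, with 0.353 CPM or less in every library; it was named after its values were seen.

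Genes that use or release acyl-CoA showed no call. Among 6 acyl-CoA binding proteins and 7 genes of the carnitine shuttle, which carries acyl groups into mitochondria, 0 had an unadjusted p under 0.05. The smallest p there belonged to Acbd3 (log2FC 0.26, adjusted p = 0.375, edgeR) and Cpt1c (-0.89, adjusted p = 0.284, edgeR). The log2FC of Cpt1c was -0.70 without 3posI and -1.38 without 2posI. Of 9 thioesterases, which split acyl-CoA, 2 had an unadjusted p under 0.05 (22.2%, beside 18.9% of all genes), Acot13 (log2FC 0.40, SE 0.14, adjusted p = 0.185, edgeR) and Acot2 (-0.64, SE 0.25, adjusted p = 0.222). The latter was named after its values were seen, and without 3posI its unadjusted p was 0.0582 (edgeR).

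Of 7 lysophospholipid acyltransferases, which place activated fatty acids into membrane phospholipids, 6 were lower in old microglia by fitted value, and 3 had an unadjusted p under 0.05, beside 18.9% of all genes in either direction. Lpcat1 was at 67.4 to 101 CPM in young and 33.0 to 57.3 CPM in old libraries (log2FC -0.82, SE 0.21, adjusted p = 0.101, edgeR). Lpcat3, which handles arachidonic acid, was at 145 to 174 CPM in young and 103 to 128 CPM in old libraries (-0.45, SE 0.12, adjusted p = 0.121). Mboat7, which places arachidonic acid into phosphatidylinositol, was at 83.4 to 114 CPM in young and 66.0 to 81.4 CPM in old libraries (-0.42, SE 0.14, adjusted p = 0.169). In these 3 genes all old libraries lay below all young ones, beside 17.6% of all genes with no overlap. None passed after adjustment in edgeR, whereas Lpcat1 (adjusted p = 0.00957) and Lpcat3 (adjusted p = 0.0158) did in DESeq2. DESeq2 called 1403 of the 17559 autosomal genes, where edgeR called 141, and 5 of the 58 pathway genes. Without 3posI, which was the lowest library for Lpcat1 and Lpcat3, the log2FC was -0.63 for Lpcat1, -0.38 for Lpcat3 and -0.38 for Mboat7 (edgeR). Summed endothelial markers, though not each gene of that list, and the share of ribosomal RNA were likewise lower in every old library. Cd209a, though not every gene of its list, was higher. Their part in the values of these 3 genes was not tested. Lpcat3 and Mboat7 were named after their values were seen.

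Of 10 PPAR axis regulators, 4 had an unadjusted p under 0.05, all with higher values in old microglia, beside 18.9% of all genes in either direction. Without 3posI there were 3, beside 17.6% of the autosomal genes of that fit, and Nr1h3 was no longer among them. Rxra, a partner of the PPARs, was at 24.5 to 30.7 CPM in young and 37.4 to 51.4 CPM in old libraries (log2FC 0.68, SE 0.15, adjusted p = 0.0718, edgeR). Rxrg, its relative, was at 1.08 to 4.13 CPM in young and 5.93 to 14.3 CPM in old libraries (1.98, SE 0.46, adjusted p = 0.0841). Nr1h3, which encodes the oxysterol receptor LXR alpha, was at 1.45 to 4.61 CPM in young libraries and at 4.56, 35.7 and 5.20 CPM in 2posI, 3posI and 4posI (2.12, SE 0.72, adjusted p = 0.173), and its log2FC was 0.49 without 3posI. Ppargc1a, a coactivator, stayed below 1.23 CPM (1.71, SE 0.60, adjusted p = 0.180). Pparg itself was at 0.194 to 0.843 CPM in young and at 0.119, 3.07 and 0.734 CPM in old libraries, again highest in 3posI. Its log2FC was 1.25 (adjusted p = 0.485, edgeR), and -0.34 without 3posI. Rxrg, Nr1h3, Ppargc1a and Pparg were named after their values were seen.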

How the data were processed

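According to the methods, reads trimmed with skewer were mapped by STAR to GRCm38, and RSEM quantified the genes of GENCODE m15. The submitters' processing notes also name FastQC 0.11.5 and limma, with no versions of STAR or RSEM. The authors' files hold RSEM expected counts with no normalization. They also hold the effective length per gene and library, and TPM and FPKM values that the authors scaled within libraries; FPKM was not used.

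Expected counts were rounded. A gene needed more than 10 in 1 library or more. Following the methods, 614 genes of chromosomes X, Y and M were dropped, which left 17559. They were kept for Acsl4 and for the thioesterase gene Acot9. Acot9 is named for this only and is not among the 57 genes fitted without 3posI. edgeR 4.0.16 (R 4.3.3) computed TMM factors and tested old against young by quasi-likelihood with no further term, and p-values were adjusted by Benjamini-Hochberg over all genes (threshold 0.05). log2 CPM had a prior count of 1. As alternatives, limma 3.58.1 (voom, plain or with quality weights), DESeq2 1.42.0, RLE factors, upper-quartile factors, an offset for effective length, other filters, log2 TPM with pseudocounts of 0.1 and 1, and omission of each library in turn were run. No molecular identifiers are named, so counts include PCR copies, and p-values measure the spread between 7 mice.

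The text names all 10 members, the gene with the smallest p in each of 9 pathway lists and any past the threshold, the 5 genes most like the member with the smallest p, and the top gene of each of 11 marker lists, 1 of which is not reported here. Genes that the text marks as named after their values were seen fall outside this rule. The members and lists were chosen with earlier results of these data known.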

Additional observations from a re-analysis of the deposited data

How the results depend on the processing

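No member passed the threshold of an adjusted p under 0.05 under any alternative. Cd36, Slc27a4, Fabp4, Acsl1, Acsl3 and Acsl4 kept their direction under all alternatives; DESeq2 gave no p for Fabp4. Cd36 (1.20) was 0.56 with quality weights and 0.68 and 0.66 on log2 TPM with pseudocounts of 0.1 and 1, Fabp4 (2.61) was 1.70 with quality weights and 1.60 on log2 TPM with a pseudocount of 1, and Acsl1 (-0.29) was -0.61 with the offset and -0.71 and -0.68 on log2 TPM. Slc27a1 (0.01) turned to -0.15 with limma-voom, -0.45 with quality weights, -0.041 with upper-quartile factors, -0.11 with the effective length offset, -0.011 without a filter, and -0.37 and -0.36 on log2 TPM with pseudocounts of 0.1 and 1; leaving out 1 library at a time gave -0.80 to 0.31. Acsl6 (0.15) turned to -0.24 with limma-voom, -0.45 with quality weights, -0.17 with the offset, and -0.40 and -0.17 on log2 TPM, with -0.19 to 0.61 over left-out libraries. Acsl5 (-0.02) turned to 0.05 with quality weights, and ran from -0.066 to 0.036 over left-out libraries, Fabp3 from -0.025 to 0.23, Fabp5 from -0.18 (without 3posI) to 1.87, and Slc27a3 from -0.13 (without 2posI) to 0.46. The cause was not tested.

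In shares of summed expected counts, the difference turned to -2.32 percentage points for Acsl5 (2.35 in TPM; 0.950 to 4.09 over left-out libraries) and to 0.0457 points for Acsl6 (-0.0801 in TPM; -0.294 to 0.190 over left-out libraries). The other 3 shares kept their direction, with -0.480 to -0.0965 points for Acsl3 (-0.294) over left-out libraries.

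Other genes of the pathway past the threshold numbered 0, but 2 with quality weights (Acss1, Rxrg), 5 with DESeq2 (those, Rxra, Lpcat1, Lpcat3), 1 with the offset (Acss1), 2 without a filter (Acss1, Rxrg), 1 with each TPM pseudocount (Acss1), and 0 to 1 over left-out libraries, with the 1 (Acss1) found without 3posI. Over all genes there were 141 calls, 318 with quality weights, 1403 with DESeq2, 213 with the offset, 288 without a filter, 228 with at least 1 CPM in 3 libraries, 71 and 64 on log2 TPM, and 1 to 159 over left-out libraries. No paired analysis was possible because the labels give no replicate number that the ages share. With 3 against 4 libraries, intervals of Cd36, Slc27a1, Fabp4 and Acsl6 span more than 2 log2 units, so moderate differences in these genes were not detectable.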
